A study of Mus musculus with 16 samples.

Results

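Transcripts of 10 nuclear genes that build and maintain mitochondria were followed in mouse liver: Ppargc1a, Ppargc1b, Nrf1, Gabpa, Tfam, Tfb1m, Tfb2m, Polrmt, Polg and Polg2. They were picked by symbol from a table of 35502 genes, with earlier results of these data known, and each of the 10 matched 1 row and passed the filter on low counts. Each of 16 mice gave 1 liver library, in 4 groups of 4 individual animals. The mature and immature LERKO mice carry Cre and lack oestrogen receptor alpha (gene Esr1) in the liver, and the mature and immature controls carry the floxed Esr1 without Cre. Stage in what follows is the label of sexual maturity, and the sources used here do not give whether it refers to the time of knockout or of tissue collection, nor the promoter driving Cre, the deleted exon, the sex or the age in weeks.

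Mitochondria keep a small circular genome that encodes a few subunits of the respiratory chain, while the proteins that copy and transcribe it are encoded in the nucleus. PGC-1alpha and PGC-1beta (Ppargc1a, Ppargc1b) are transcriptional coactivators that respond to nutritional and hormonal state, and in liver PGC-1alpha is best known for fasting metabolism. They act with DNA-binding factors that include NRF1 and the GABP complex, whose DNA-binding subunit is GABPA. NRF1 and GABP act on nuclear genes for mitochondrial proteins, among them Tfam, Tfb1m and Tfb2m. In the organelle POLRMT transcribes the genome with TFAM and TFB2M, and the polymerase gamma subunits POLG and POLG2 replicate it.

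Because NRF1 and GABP are themselves among the genes followed, the promoters were searched for the letters these factors are known to recognise. RefSeq windows from 250 bases before to 50 bases after the gene start (GRCm38.p6) were available for 9 of the 10 genes, all but Ppargc1b. The GABP (ETS) motif CCGGAAG, or its reverse complement CTTCCGG, stood in 8.86% of all 32851 windows and in the windows of 5 of these 9 genes. The NRF1 motif CGCATGCGC, or GCGCATGCG on the other strand, stood in 1.75% of all windows and in that of Tfb2m. The cAMP response element TGACGTCA, which reads the same on both strands and was searched because it drives genes of the fasting response, stood in 1.79% of all windows and in 0 of these 9. The 6 matches are printed in the direction of the gene with 29 bases each and the motif in capitals, to show how the same letters recur in both orientations.
Tfam: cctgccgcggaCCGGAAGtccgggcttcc
Polg: gaggacctcacCCGGAAGtccctctgcac
Gabpa: gagggtaagtgCTTCCGGgtccctcagct
Polg2: cgggtgacgctCTTCCGGgggcgtggtct
Polrmt: ccctaagagcgCTTCCGGcagtcgcagaa
Tfb2m: ctaggtcgttCGCATGCGCcattcgtaat
The GABP motif began 47 bases before the start in Tfam (chr10:71238074-71238102, reverse strand) and 38 before it in Polg (chr7:79466294-79466322, reverse strand). It began 93 bases before the start in Gabpa (chr16:84835020-84835048, forward strand), 29 before it in Polg2 (chr11:106779549-106779577, reverse strand) and 43 before it in Polrmt (chr10:79746607-79746635, reverse strand). The NRF1 motif of Tfb2m (chr1:179546246-179546274, reverse strand) began 12 bases after the start. A match describes the letters in a window, and binding was not measured. Only these exact letters were searched, so sites with other letters or outside the windows would be missed.

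Libraries held 18123974 to 23213905 counts in total, and 13379 genes passed the filter and were tested. Esr1 itself stood at 82.2 ± 19.1 CPM (the gene's share of the counts on a common library total after TMM scaling, here and below mean ± SD, n = 4) in mature controls and at 16.3 ± 2.19 CPM in mature LERKO. In immature mice it stood at 73.6 ± 15.8 and 13.0 ± 2.19 CPM, so each LERKO library was below each control of its stage (log2 fold change -2.33 and -2.50, adjusted p = 1.57e-05 and 6.55e-06, edgeR). The 7 hepatocyte markers summed to between 86422 and 158962 CPM per library. Skeletal muscle markers summed to 882, 399, 0.67 and 58.6 CPM in mature control livers 1 to 4 and to 161 CPM in 1 immature LERKO library, against at most 2.59 CPM in the other 11. Of the 11 tested muscle markers, DESeq2 called 1 in mature LERKO, 7 in immature LERKO, 9 between control stages, 0 between LERKO stages and 8 for the difference of effects, where edgeR called 0. Over all 13379 tested genes, muscle markers included, DESeq2 called 27, 13, 74, 6 and 22 in these comparisons. Stellate cell, endothelial and Kupffer cell markers stood at different summed levels in the groups, although 0 of their genes passed with edgeR or DESeq2; fat (at most 25.6 CPM), cholangiocyte (28.4 to 56.8 CPM) and erythroid markers (61.6 to 161 CPM) are given as ranges of their sums over all libraries. The 7 stellate cell markers summed to 248 to 339 CPM in mature controls, 58.9 to 237 in mature LERKO, 156 to 203 in immature controls and 146 to 299 CPM in immature LERKO. All 7 had negative fold changes in mature LERKO (median -0.68), 3 of them at an unadjusted p under 0.05, against 7.3% of all tested genes. In immature LERKO all 7 were positive (median 0.29), 0 at that p, against 2.76% of all genes. The 7 endothelial markers summed to 182 to 261, 80.4 to 206, 122 to 181 and 120 to 252 CPM in the same order, again all negative in mature LERKO (median -0.44) and all positive in immature LERKO (median 0.28). The 7 Kupffer cell markers summed to 230.2 to 318 CPM in mature and 114 to 240.1 CPM in immature controls. Each had a positive fold change between control stages (median 0.64), all 7 at an unadjusted p under 0.05, against 9.84% of all genes. So had each of the 7 endothelial (median 0.70, 5 at that p) and the 7 stellate cell markers (median 0.59, 2 at that p). In mature LERKO the 7 Kupffer cell markers were all negative (median -0.25, 0 at that p). In immature LERKO 5 of them were positive and 2 negative (median 0.038). The part of these cell types in the results below was not tested. In bulk liver RNA, fewer cells of a type and less RNA per cell cannot be told apart. All 13 mitochondrially encoded protein genes were at 0 counts in every library of the table, so the output of the mitochondrial genome was not analysed here.

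The 10 transcripts formed an ordered series of levels. Per kilobase of the principal transcript, Tfam was highest at 10.2 ± 0.951 CPM (SD, n = 16), followed by Tfb2m at 8.87 ± 1.02 and Gabpa at 7.74 ± 0.750. Polg (5.71 ± 0.379), Polrmt (5.34 ± 0.348), Tfb1m (4.87 ± 0.642), Nrf1 (4.60 ± 0.749) and Polg2 (4.05 ± 0.592) came next on this per-kilobase scale. The coactivator genes were lowest, Ppargc1b at 2.63 ± 0.676 and Ppargc1a at 2.47 ± 0.594 CPM per kilobase. Neighbours in this order overlapped in their ranges over the 16 livers. Divided by all merged exons of the gene instead, the first 3 places were the same (9.62, 7.75 and 6.79), but Nrf1 moved to the last place at 0.841 CPM per kilobase, since its annotated exons sum to 10282 bases against 1879 in the principal transcript. The middle and lower places therefore depend on which transcripts the liver uses, which gene counts do not show.

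**Figure D1:**
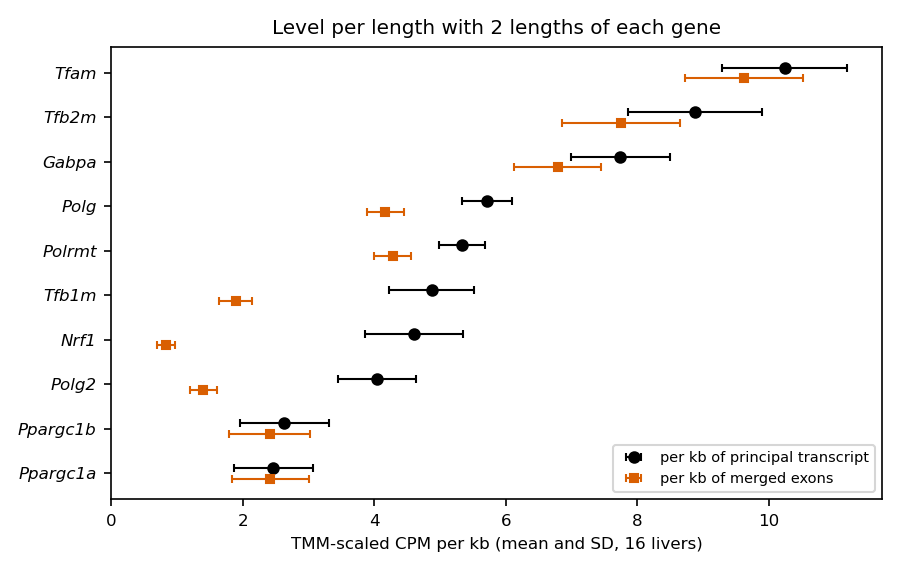
Level of each gene per kilobase (TMM-scaled CPM, mean and SD over 16 livers), by the length of the principal transcript (circles) and of all merged exons (squares). Tfam, Tfb2m and Gabpa lie at the top by both lengths, and the squares of Nrf1, Polg2 and Tfb1m lie far below their circles.

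The genes also differed in how far they varied between livers. The polymerase genes Polrmt and Polg had the narrowest spread, with coefficients of variation of 6.52% and 6.63% over the 16 libraries and a highest library only 1.23 and 1.28 times the lowest. Tfam (9.28%), Gabpa (9.69%), Tfb2m (11.5%), Tfb1m (13.2%), Polg2 (14.6%) and Nrf1 (16.3%) were also under the median of all tested genes, 17.1%. Ppargc1a (24.1%) and Ppargc1b (25.7%) were above it, with a highest library 2.14 and 2.52 times the lowest. Thus 8 of the 10 varied less than the median gene, and the pair above it were the coactivator genes. Spread also holds counting error, which is larger for the genes of low count such as Polg2, Tfb1m and Nrf1.

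Ppargc1a (ENSMUSG00000029167, chromosome 5, 51454250 to 51567726, reverse strand, GRCm38) was at 18.9, 13.4, 12.5 and 17.0 CPM in mature control livers and at 12.7, 12.2, 12.3 and 14.6 CPM in mature LERKO. Among immature mice, levels were 12.4, 20.5, 17.2 and 15.3 CPM in controls and 18.4, 18.1, 13.6 and 26.1 CPM in LERKO. The mature LERKO libraries were low and close together. Immature LERKO had the highest group mean but ran from 13.6 to 26.1 CPM, and all pairs of groups compared overlapped. Within mature mice the log2 fold change of LERKO against control was -0.26 (SE 0.19, 95% interval -0.66 to 0.14, adjusted p = 0.772, edgeR). Within immature mice it was 0.22 (SE 0.19, 95% interval -0.18 to 0.62, adjusted p = 1.00, edgeR). The difference between these 2 effects, mature minus immature, was -0.48 with a 95% interval of -1.04 to 0.085 and did not pass (adjusted p = 0.776, edgeR).

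The largest contrast of Ppargc1a lay between the stages of LERKO mice, 12.9 ± 1.12 CPM in mature against 19.0 ± 5.16 CPM in immature livers. This is a log2 fold change of -0.56 (SE 0.19, 95% interval -0.96 to -0.16), with an unadjusted p of 0.00902 and an adjusted p of 0.955 in edgeR, so it did not pass over all genes. In the controls the same stages differed by -0.082 (95% interval -0.48 to 0.32, adjusted p = 0.923, edgeR). The immature LERKO library with 26.1 CPM of Ppargc1a was also the one with 161 CPM of muscle transcripts. The mature control with 882 CPM of muscle transcripts held 18.9 CPM of Ppargc1a. Mature control 2, with 399 CPM of muscle transcripts, held only 13.4 CPM of Ppargc1a. Immature control 2, with 0.98 CPM of muscle transcripts, held 20.5 CPM. Without the immature LERKO library at 26.1 CPM the contrast of LERKO stages was -0.37. Without the 3 libraries richest in muscle transcripts it was -0.38 (unadjusted p = 0.0443, adjusted p = 0.977, edgeR). Leaving out those 3 also moved the knockout effect in immature mice from 0.22 to 0.035 and the difference of effects to -0.23, while the effect in mature mice was -0.20 (-0.15 without mature control 1 alone). The value of -0.20 rests on mature controls 3 and 4 alone, and mature control 4 still held 58.6 CPM of muscle transcripts. The part of muscle transcripts in these values was not tested further.

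Ppargc1b (ENSMUSG00000033871, chromosome 18, 61298136 to 61400431, reverse strand) encodes the related coactivator PGC-1beta, known in liver for lipid synthesis and lipoprotein secretion. It was at 14.3, 9.06, 12.1 and 13.0 CPM in mature controls, at 12.2, 10.3, 6.14 and 8.59 CPM in mature LERKO, at 6.32, 10.5, 10.5 and 9.19 CPM in immature controls and at 5.66, 9.22, 8.31 and 8.47 CPM in immature LERKO. The mature controls held 3 of the 4 highest values, and all groups overlapped. The log2 fold change in LERKO was -0.38 (SE 0.22, 95% interval -0.84 to 0.085, adjusted p = 0.723, edgeR) in mature mice and -0.21 (SE 0.22, 95% interval -0.68 to 0.26, adjusted p = 1.00, edgeR) in immature mice. With 1 library left out the mature value ran from -0.53 (without mature LERKO 1) to -0.21 (without mature LERKO 3), and the immature value from -0.35 (without immature control 1) to -0.078 (without immature LERKO 1). Its point estimate was thus below 0 in LERKO at both stages, where that of Ppargc1a was below 0 in mature and above 0 in immature mice, and neither gene passed. Between control stages Ppargc1b stood 0.41 higher in mature mice on the log2 scale (95% interval -0.057 to 0.87, adjusted p = 0.591, edgeR), which did not pass. Its standard errors were the largest of the 10 genes in all 5 comparisons.

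**Figure D2:**
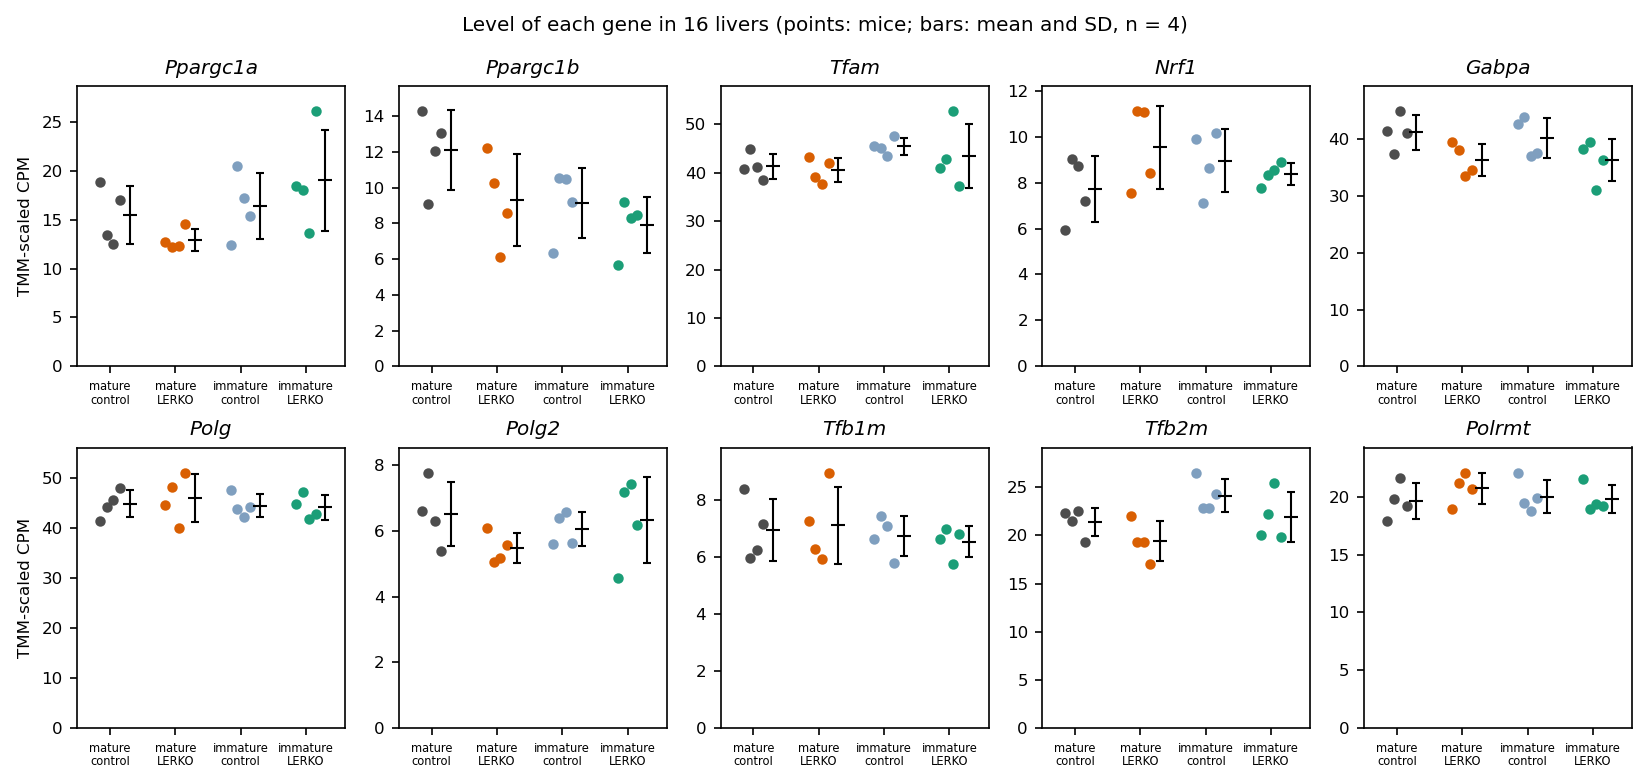
TMM-scaled CPM of each gene in each of the 16 livers by group (points), with the mean and SD of each group; each panel has its own axis starting at 0. In the 4 comparisons of groups made, the groups overlap in every panel except for Tfb2m, whose mature and immature controls are apart, and Ppargc1a is highest in 1 immature LERKO liver at 26.1 CPM.

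Nrf1 (ENSMUSG00000058440, chromosome 6, 30047988 to 30153458, forward strand) encodes nuclear respiratory factor 1. Its transcript stood at 5.94, 9.02, 8.71 and 7.19 CPM in control and 7.56, 11.1, 11.1 and 8.41 CPM in LERKO livers of mature mice. In immature mice it stood at 9.90, 7.13, 8.64 and 10.2 CPM in control and 7.77, 8.32, 8.53 and 8.91 CPM in LERKO livers. The highest livers, a pair of mature LERKO mice, and the lowest, a mature control, fell in the same comparison, whose groups nevertheless overlapped. That comparison gave a log2 fold change of 0.31 (SE 0.16, 95% interval -0.035 to 0.65, adjusted p = 0.711, edgeR), the highest point estimate among the 10 genes in mature LERKO, and 0.20 without mature control 1. In immature mice the value was -0.095 (95% interval -0.44 to 0.25, adjusted p = 1.00, edgeR). The difference of effects, 0.40 (SE 0.23, 95% interval -0.082 to 0.88, adjusted p = 0.780, edgeR), did not pass.

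Gabpa (ENSMUSG00000008976, chromosome 16, 84834925 to 84863779, forward strand) encodes the DNA-binding subunit of GABP. It was at 41.5, 37.5, 44.9 and 41.2 CPM in mature controls and at 39.5, 38.2, 33.5 and 34.7 CPM in mature LERKO. In immature mice the controls held 42.7, 44.0, 37.1 and 37.6 CPM and LERKO livers 38.3, 39.5, 31.1 and 36.4 CPM. LERKO livers were lower on average at both stages by a similar amount, with overlap. The log2 fold changes were -0.18 (SE 0.095, 95% interval -0.38 to 0.023, adjusted p = 0.711, edgeR) in mature and -0.15 (SE 0.095, 95% interval -0.35 to 0.052, adjusted p = 1.00, edgeR) in immature mice, and neither passed. Without immature LERKO 3 the immature value was -0.084. The difference of these effects was -0.029 (95% interval -0.31 to 0.26). Gabpa shares 397 exon bases with Atp5j, an ATP synthase subunit gene on the opposite strand with 2652 to 4268 counts per library. The libraries are directional, but the strand setting of the counting is unknown, so reads of Atp5j in the shared bases cannot be told apart from those of Gabpa.

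Tfam (ENSMUSG00000003923, chromosome 10, 71225464 to 71238280, reverse strand) encodes the protein that packs mitochondrial DNA into nucleoids and starts its transcription. Its level was 40.7, 44.9, 41.1 and 38.5 CPM in mature controls and 43.2, 39.2, 37.7 and 42.0 CPM in mature LERKO. The immature controls were at 45.6, 45.1, 43.4 and 47.6 CPM, a narrow band, and immature LERKO livers at 41.0, 42.8, 52.7 and 37.4 CPM, the widest. LERKO and control livers overlapped at both stages, with log2 fold changes of -0.028 (95% interval -0.23 to 0.18, adjusted p = 0.972, edgeR) in mature and -0.065 (95% interval -0.27 to 0.14, adjusted p = 1.00, edgeR) in immature mice. Both intervals lie inside a band of 1.5-fold in either direction.

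Tfb2m (ENSMUSG00000026492, chromosome 1, 179528055 to 179546267, reverse strand) encodes the factor that opens mitochondrial promoters for POLRMT. Mature controls held 22.3, 21.5, 22.6 and 19.4 CPM and immature controls 26.5, 22.8, 22.9 and 24.3 CPM. The 4 mature controls were all below the 4 immature controls, but by a small step, 22.6 against 22.8 CPM at the edge. The log2 fold change between control stages was -0.17 (SE 0.10, 95% interval -0.39 to 0.041, adjusted p = 0.630, edgeR) and did not pass. LERKO livers held 22.0, 19.3, 19.3 and 17.0 CPM when mature and 20.1, 22.2, 25.5 and 19.8 CPM when immature. Their stages overlapped, at a log2 fold change of -0.17 (95% interval -0.39 to 0.040, adjusted p = 0.955, edgeR). Against control the values were -0.14 (adjusted p = 0.763, edgeR) in mature LERKO and -0.14 (adjusted p = 1.00, edgeR) in immature LERKO, with ranges of -0.21 to -0.056 (the latter without mature LERKO 4) and -0.22 to -0.094 (the former without immature LERKO 3, the latter without immature control 1) when 1 library was left out.

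Tfb1m (ENSMUSG00000036983, chromosome 17, 3519256 to 3557781, reverse strand), a relative of Tfb2m, encodes a methyltransferase that modifies the ribosomal RNA of mitochondria. It ran from 5.74 to 8.94 CPM over the 16 livers, with group means of 6.93 ± 1.09, 7.11 ± 1.35, 6.74 ± 0.712 and 6.54 ± 0.550 CPM in mature controls, mature LERKO, immature controls and immature LERKO. The LERKO log2 fold changes were 0.033 (95% interval -0.28 to 0.35) and -0.043 (95% interval -0.36 to 0.27) in mature and immature mice. It shares 142 exon bases with Tiam2 on the opposite strand (27 to 217 counts per library), so that its value is uncertain to that extent.

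Polrmt (ENSMUSG00000020329, chromosome 10, 79736123 to 79746581, reverse strand) encodes the mitochondrial RNA polymerase and was the steadiest of the 10 genes. Its group means were 19.7 ± 1.56, 20.7 ± 1.32, 20.0 ± 1.43 and 19.8 ± 1.20 CPM in the same order. LERKO and control differed by 0.076 (95% interval -0.10 to 0.26, adjusted p = 0.868, edgeR) in mature and by -0.016 (95% interval -0.20 to 0.16, adjusted p = 1.00, edgeR) in immature mice, on the log2 scale.

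Polg (ENSMUSG00000039176, chromosome 7, 79446231 to 79466362, reverse strand) encodes the catalytic subunit of the polymerase that copies mitochondrial DNA. It was at 41.4, 44.2, 45.6 and 48.0 CPM in mature controls, 44.6, 48.1, 39.9 and 50.9 CPM in mature LERKO, 47.6, 43.7, 42.1 and 44.2 CPM in immature controls and 44.7, 47.2, 41.7 and 42.7 CPM in immature LERKO. Both the highest and the lowest liver were mature LERKO, and the 4 group means lay between 44.1 and 45.9 CPM. The LERKO log2 fold changes were 0.034 (95% interval -0.15 to 0.21, adjusted p = 0.956, edgeR) in mature and -0.011 (95% interval -0.19 to 0.17, adjusted p = 1.00, edgeR) in immature mice. It shares 921 exon bases with Fanci on the opposite strand, which had at most 18 counts in any library.

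Polg2 (ENSMUSG00000020718, chromosome 11, 106768253 to 106779537, reverse strand) encodes the accessory subunit that holds POLG on the DNA. Group means were 6.51 ± 0.981, 5.47 ± 0.466, 6.05 ± 0.515 and 6.33 ± 1.31 CPM in mature controls, mature LERKO, immature controls and immature LERKO. Its log2 fold change was -0.25 (SE 0.15, 95% interval -0.58 to 0.078, adjusted p = 0.737, edgeR) in mature LERKO and 0.063 (95% interval -0.27 to 0.39, adjusted p = 1.00, edgeR) in immature LERKO. The mature value was -0.15 without mature control 2, and -0.095 without the 3 libraries richest in muscle transcripts, which include mature controls 1 and 2. Per kilobase of principal transcript the level of Polg2 was 4.05 CPM, against 5.71 CPM for Polg. Polg2 shares 132 exon bases with Milr1 on the opposite strand, which had 3 to 14 counts per library.

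None of the 10 genes passed an adjusted p of 0.05 in either knockout comparison, either comparison of stages or the difference of effects (edgeR's quasi-likelihood test, adjusted over 13379 genes). DESeq2 also called 0 of the 10 in each comparison, and the lowest adjusted p of any of them under any alternative setting was 0.299. With edgeR the calls were as rare for all genes: 0.00747% of tested genes passed in each knockout comparison, which is Esr1 alone, and 0% in the other 3. With DESeq2, 27 of all 13379 genes were called in mature LERKO and 13 in immature LERKO. It called 74 between control stages, 6 between LERKO stages and 22 for the difference of effects. At an unadjusted p of 0.05, 0 of the 10 passed in mature LERKO against 7.3% of all genes, 0 in immature LERKO against 2.76%, 0 between control stages against 9.84%, 1 between LERKO stages (Ppargc1a) against 4.93% and 0 for the difference of effects against 6.35%. Groups did not overlap for 0 of the 10 in mature LERKO against control (3.9% of all genes), 0 in immature LERKO (1.63%), 1 between control stages (Tfb2m, 8.86%) and 0 between LERKO stages (1.52%). These shares are near the background of all genes.

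**Figure D3:**
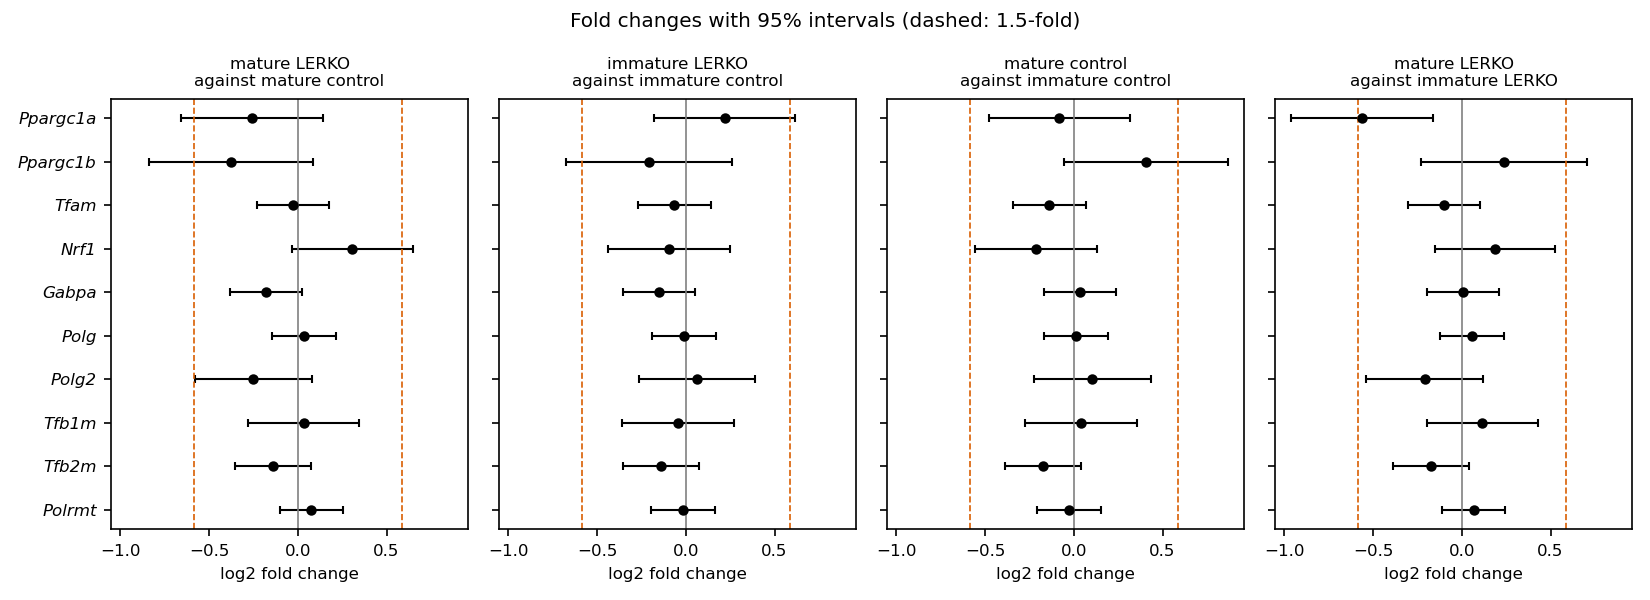
Log2 fold changes of the 10 genes in the 4 comparisons of groups with 95% intervals from the edgeR fit; dashed lines mark 1.5-fold. All but 1 of the intervals cross 0 and most stay within the dashed lines, those of Ppargc1a and Ppargc1b are the widest, and that of Ppargc1a between LERKO stages (-0.96 to -0.16) does not reach 0.

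The intervals show how large a change these livers could still hold. In mature LERKO, 7 of the 10 genes had a 95% interval entirely within 1.5-fold of control (all but Ppargc1a, Ppargc1b and Nrf1), against 58.5% of all tested genes. In immature LERKO it was 8 of the 10 (all but the coactivator genes), against 61.6% of all genes. Between stages it was 9 of 10 in controls (all but Ppargc1b, against 57.5%) and 8 of 10 in LERKO (all but the coactivator genes, against 59.3%). For the difference of the knockout effects 6 of 10 were within 1.5-fold (Tfam, Gabpa, Polg, Tfb1m, Tfb2m and Polrmt), against 38.5% of all genes. The 10 genes held 94 to 1141 counts per library, and the tested genes include ones of lower level, such as Mterf1a at 0.587 CPM in immature controls. The part of count level in these shares was not tested. The median log2 fold change of the 10 genes was -0.085 in mature LERKO and -0.054 in immature LERKO, beside -0.0097 and 0.013 over all tested genes. Fold changes were below 0 for 6 of 10 and 8 of 10 genes in these comparisons, beside 51.8% and 46.8% of all genes. Between control stages and between LERKO stages the medians were -0.0065 and 0.032.

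Since PGC-1alpha acts with NRF1 and GABP on the other genes, Ppargc1a was set against the other 9 across the 16 livers on log2 CPM. Its correlation with Nrf1 was negative (Pearson r = -0.50, permutation p = 0.0459, adjusted over the 9 relations 0.207; Spearman rho = -0.63, permutation p = 0.00959, adjusted 0.0863). That with Polrmt was negative too (r = -0.55, permutation p = 0.0285, adjusted 0.207; rho = -0.58, permutation p = 0.0218, adjusted 0.0980). Without the 2 livers farthest from the median of Ppargc1a these r were -0.66 and -0.58, and about the group means they were -0.54 and -0.53. None of the 9 relations passed after adjustment, and those with Tfam (r = -0.24, rho = -0.079), Gabpa (r = 0.12, rho = 0.11) and Ppargc1b (r = 0.11, rho = 0.16) were weak, with permutation p of 0.380, 0.653 and 0.687 for r. About the group means, and with no test made, r of Ppargc1a was -0.69 with Tfb2m and -0.62 with Tfam, where the pooled r were -0.12 and -0.24, and 0.66 with Tfb1m against 0.38 pooled.

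Among all 45 pairs of the 10 genes, a set examined after the values were seen, the closest was Tfam with Tfb2m. The livers with more Tfam had more Tfb2m (r = 0.73, permutation p = 0.00118, adjusted over 45 pairs 0.0531; rho = 0.78, permutation p = 0.00045, adjusted 0.0202). The permutations ignored group, so these p also hold differences between groups, and r about the group means was not tested. Genes outside the 10 reached an r of 0.94 with Tfam, so a high r with Tfam was not particular to Tfb2m. Without the 2 livers farthest from the median of Tfam r was 0.69, about the group means 0.65, without the 3 libraries rich in muscle transcripts 0.76, and the sign was positive in each of the 4 groups. Pairs next in size were Ppargc1b with Polrmt (r = -0.66, rho = -0.62) and Nrf1 with Tfb1m (r = -0.66, rho = -0.71) and Polrmt (r = 0.65, rho = 0.61), with permutation p for r of 0.00573, 0.00558 and 0.00584 and an adjusted p of 0.0657 each.

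**Figure D4:**
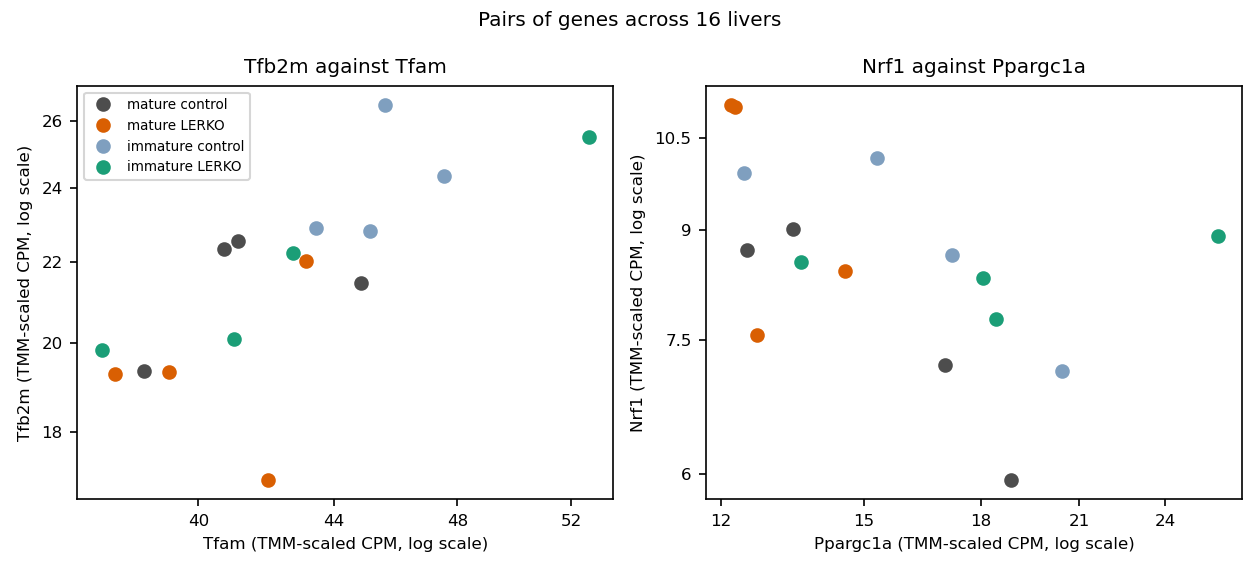
Levels of Tfb2m against Tfam and of Nrf1 against Ppargc1a in the 16 livers (TMM-scaled CPM, log axes), coloured by group. Tfb2m is higher where Tfam is higher (r = 0.73), and Nrf1 tends to be lower where Ppargc1a is higher (r = -0.50); immature controls lie high on both axes of the first panel, and mature LERKO livers lie low for Ppargc1a in the second.

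Across 9591 genes with a mean log2 CPM of at least 2, genes whose levels over the 16 livers were among the 3 most like those of Ppargc1a, Tfam or Polg were listed as a description. Ttc23 was among them for Ppargc1a (r = 0.78). Those for Tfam were Atraid, Eif3e and Cox7a2l (r = 0.94 each), and those for Polg included Ppp1r37 (0.86) and Odf2 (0.83).

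The wider pathway was read from lists around the 10 genes, and 0 genes of any list passed in either direction in any of the 5 comparisons with edgeR or with DESeq2. The lists hold other genes than the 10. Beside the list counts at an unadjusted p under 0.05 that follow, 7.3% of all tested genes passed in mature LERKO and 2.76% in immature LERKO. Of 13 genes for mitochondrial DNA replication and the nucleoid, 7 had positive fold changes in mature LERKO (median 0.0039) and 7 in immature LERKO (median 0.033), with 0 and 1 at an unadjusted p under 0.05. Its most abundant members were Lonp1, the matrix protease that degrades free TFAM, at 153 ± 12.2 CPM in mature controls and 149 ± 24.4 CPM in mature LERKO, and Atad3a, a nucleoid-associated membrane ATPase, at 55.3 ± 2.45 and 49.1 ± 5.86 CPM. The members with the smallest p were Top3a, a topoisomerase that separates daughter genomes, in mature LERKO (4.97 ± 0.246 in control and 5.80 ± 0.414 CPM, adjusted p = 0.711, edgeR), and the flap endonuclease Fen1 in immature LERKO (1.77 ± 0.259 in control and 2.86 ± 0.771 CPM, adjusted p = 1.00, edgeR).

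Of 11 genes for the supply of nucleotides, 1 had a positive and 10 a negative fold change in mature LERKO (median -0.11), against 7 positive and 4 negative in immature LERKO (median 0.025), with 1 at an unadjusted p under 0.05 in each. Tymp, which breaks down thymidine, was at 68.3 ± 5.97 CPM in mature controls and 70.7 ± 14.5 CPM in mature LERKO. Rrm1, a ribonucleotide reductase subunit, was at 8.18 ± 0.949 CPM in immature controls and 10.7 ± 3.14 CPM in immature LERKO (adjusted p = 1.00, edgeR).

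Of 21 tested genes for mitochondrial transcription and RNA handling, 14 were positive in mature LERKO (median 0.039) and 9 in immature LERKO (median -0.023), with 1 and 0 at an unadjusted p under 0.05. Hsd17b10, a subunit of mitochondrial RNase P, was at 127 ± 5.03 CPM in mature controls and 120 ± 13.3 CPM in mature LERKO, and Lrpprc, which stabilises mitochondrial mRNA, at 99.4 ± 4.22 and 93.3 ± 10.1 CPM. The smallest p fell to Fastk in mature LERKO (31.2 ± 0.663 against 26.5 ± 3.54 CPM, adjusted p = 0.683, edgeR) and to Mterf1a in immature LERKO (0.587 against 0.880 CPM on average, adjusted p = 1.00, edgeR).

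Around PGC-1, 9 of 20 tested regulators were positive in mature LERKO (median -0.0086) and 6 in immature LERKO (median -0.058), with 2 and 0 at an unadjusted p under 0.05. Lpin1, a phosphatidate phosphatase and partner of PGC-1alpha, was at 457 ± 304 CPM in mature controls, 259 ± 26.9 in mature LERKO, 460 ± 118 in immature controls and 530 ± 395 CPM in immature LERKO. The fatty acid receptor gene Ppara was at 181 ± 20.6 CPM in mature controls and 160 ± 51.3 CPM in mature LERKO. Nrip1, which encodes a corepressor that opposes PGC-1alpha, had the smallest p in mature LERKO, at 16.7 ± 0.398 in control and 21.5 ± 5.13 CPM (log2 fold change 0.37, adjusted p = 0.614, edgeR). Foxo1, a fasting-active factor that PGC-1alpha coactivates, had it in immature LERKO, at 94.6 ± 10.5 in control and 75.9 ± 8.67 CPM (log2 fold change -0.32, adjusted p = 1.00, edgeR).

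Of 16 nuclear targets of NRF1 and GABP, 4 were positive in mature LERKO (median -0.082) and 12 in immature LERKO (median 0.062), with 0 at an unadjusted p under 0.05 in both. Between LERKO stages 2 of the 16 were positive and 14 negative (median -0.22), and between control stages 4 and 12 (median -0.13). Of all tested genes, 49.6% and 46.9% had fold changes below 0 in these comparisons. At an unadjusted p under 0.05 there was 1 of the 16 in each, against 4.93% and 9.84% of all genes. Alas1, the first enzyme of haem synthesis, ran at 567 ± 298 CPM in mature controls and 1002 ± 356 CPM in immature controls (adjusted p = 0.558, edgeR). The chaperonin gene Hspd1 was at 366 ± 21.6 and 445 ± 36.0 CPM in the same groups (adjusted p = 0.467, edgeR). Between LERKO stages, mature against immature, the log2 fold changes were -0.32 for Alas1 and 0.0098 for Hspd1 (adjusted p = 0.966 and 0.999, edgeR). In mature LERKO against control they were 0.052 and 0.14, and in immature LERKO -0.45 and -0.15. Sdhb, of respiratory complex II, was at 184 ± 4.97 CPM in mature controls and 162 ± 15.9 CPM in mature LERKO (adjusted p = 0.744, edgeR), and Cox5b, of complex IV, at 173 ± 16.4 in immature controls and 194 ± 28.9 CPM in immature LERKO (adjusted p = 1.00, edgeR).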

How the data were processed

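Liver mRNA of 16 mice (individual animals per the labels' protocols, 4 in each of 4 groups) was sequenced from directional paired-end libraries. The build mm10 and the tools STAR, limma and R 4.05 are named, without roles, per the submitters' processing notes. No counting program or strand setting is named there. The authors deposited counts per gene, with no normalization visible. In 5 columns the deposited values are best called estimated counts, since 10 values of 2 predicted genes are not whole; these were rounded.

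Genes were kept by filterByExpr (minimum count 10, total 15), given TMM factors (0.852 to 1.07) and compared with edgeR 4.0.16 (R 4.3.3; glmQLFit and glmQLFTest), 1 coefficient per group, with Benjamini-Hochberg adjustment over 13379 genes. A gene was called at an adjusted p under 0.05. Standard errors follow from the F statistic. Positions are from GENCODE vM21, promoter windows from RefSeq. Correlations used 100000 two-sided permutations of log2 CPM with a prior count of 2 (scipy 1.17.1). The fitting script was tested on simulated data.

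Alternatives were DESeq2 1.42.0, limma-voom 3.58.1, RLE factors, library size alone, no filter, the compared groups alone, each library left out and, added after the data were seen, leaving out the 3 libraries richest in muscle transcripts. The 10 genes and all lists were chosen with earlier results of these data known. All 10 were named; of each list, where no gene passed, the 2 highest in level and the one with the smallest p in each knockout comparison were named. The 3 genes most like Ppargc1a, Tfam and Polg across livers were named likewise; a few genes that these rules select are left out of the text. Depth limits the precision of the genes of lowest count.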

Additional observations from a re-analysis of the deposited data

Results flagged for a closer look

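Of 40 sets of 4 livers (10 genes in 4 groups), 1 held a library far from the others: Polrmt in immature LERKO, where 1 liver stood at 21.6 CPM and the other 3 between 19.0 and 19.4 CPM. Its gap to the nearest of them was 0.834 of the whole range, against a critical value of 0.829 for 4 samples. Chance flags about 1 in 20 such sets.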

How the results depend on the processing

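Under RLE factors, library size alone, no filter, DESeq2, limma-voom, the compared groups alone, each library left out and the 3 libraries rich in muscle transcripts left out, 0 of the 10 genes was called in any comparison. Of 986 values for 43 fold changes of the 10 genes under these alternatives, 928 kept their direction and 58 reversed, all in 17 fold changes of at most 0.12 in size; the cause was not tested. Over all genes, DESeq2 called 27 in mature LERKO, 13 in immature LERKO, 74 between control stages, 6 between LERKO stages and 22 for the difference of effects. The compared groups alone gave 6 calls between control stages. With 1 library left out, 1 to 2 genes were called in mature LERKO (2 without mature LERKO 1), 0 to 1 between control stages (1 without mature LERKO 4) and 0 to 1 between LERKO stages (1 without mature LERKO 1).

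Reversed log2 fold changes were these. With library size alone, Polg was -0.039 and Tfb1m -0.046 in mature LERKO, Polg 0.047, Tfb1m 0.014 and Polrmt 0.043 in immature LERKO, Polrmt 0.057 between control stages and Gabpa -0.035 between LERKO stages. With RLE factors Polg was -0.0097 between control stages and Gabpa -0.0089 between LERKO stages, and with DESeq2 -0.0090 and -0.0089. Without the 3 muscle-rich libraries Tfam was 0.025 and Polg -0.029 in mature LERKO, Tfam 0.0027, Polg 0.0069 and Polrmt 0.0012 in immature LERKO, Polg2 -0.060, Tfb1m -0.015 and Polrmt 0.020 between control stages and Gabpa -0.0059 between LERKO stages. There Ppargc1a had an r of 0.083 with Tfam and 0.0040 with Polg. Over all 16 livers, r of Ppargc1a with Polg2 was -0.12 about the group means, against 0.099 pooled.

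With each library left out, the ranges that crossed 0 were, in mature LERKO, -0.060 to 0.019 for Tfam, -0.0014 to 0.10 for Polg and -0.065 to 0.14 for Tfb1m. In immature LERKO they were -0.17 to 0.00069 for Tfam, -0.047 to 0.023 for Polg, -0.022 to 0.19 for Polg2, -0.11 to 0.013 for Tfb1m and -0.063 to 0.033 for Polrmt. Between control stages they were -0.19 to 0.043 for Ppargc1a, -0.018 to 0.076 for Gabpa, -0.025 to 0.048 for Polg, -0.0055 to 0.19 for Polg2, -0.063 to 0.092 for Tfb1m and -0.077 to 0.023 for Polrmt, and between LERKO stages -0.17 to 0.0047 for Tfam, -0.062 to 0.048 for Gabpa and -0.0092 to 0.19 for Tfb1m. No paired analysis was possible because the labels give the groups no shared replicate numbers. With 4 mice a group, changes under 1.5-fold in Ppargc1a, Ppargc1b and Nrf1 were often not resolved.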
